A study of Homo sapiens with 3 samples.

Results

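Cluster 6 is one of the clusters that the authors drew on single cells of CAMA-1, an estrogen receptor-positive luminal breast cancer cell line. Its members were taken as every annotated cell with the number 6 in the authors' cluster column, which gave 1105 of 19237 cells. Spheroids were grown from 2000 plated cells in 3 compositions: sensitive cells alone, which carried mVenus, resistant cells alone, which carried mCherry, and a coculture plated with 50% of each. The resistant cells were a line derived from CAMA-1 and selected for ribociclib resistance. All groups received 1 µM ribociclib, the labels give the treatment of every group as DMSO + 1 uM ribociclib, and all were harvested after 11 days, viably frozen, thawed and run on the 10X 3′ v3 platform. Each composition was 1 library, so no group had a replicate and no test across conditions could be made. Intervals below are 95% intervals and cover counting error only.

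Of the members, 507 were resistant cells of the coculture, 576 were resistant cells of the resistant monoculture, 20 were sensitive cells of the coculture and 2 were sensitive cells of the sensitive monoculture. Cluster 6 thus held 8.06% of the resistant cells in the coculture (exact binomial interval 7.40 to 8.76) and 7.62% in the monoculture (7.03 to 8.24), and these intervals overlap. The paper's methods retain cells with 2 or more mCherry or mVenus UMIs. With that rule applied to the annotated cells, cluster 6 held 9.72% and 11.1%, which turned the order of the libraries. The values that follow are those of its 1083 resistant cells, set against the resistant cells of clusters 0, 1, 2, 5 and 10 in the same library, which numbered 5428 in the coculture and 6740 in the monoculture. Since the clusters were drawn from the expression of these same cells, the differences are a description of the cluster and carry no test. The coculture and the monoculture give each value a second time in another library.

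Ribociclib blocks CDK4 and CDK6, the kinases that phosphorylate RB and so release E2F transcription factors at the entry into S phase. Luminal breast cells that depend on estrogen receptor signaling usually stop in G1 under such a block, while resistant cells keep dividing. Matrix Gla protein (MGP) is a secreted, vitamin K-dependent protein that binds calcium and keeps soft tissue from calcifying.

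Depth did not set the cluster apart. The median cell of cluster 6 held 29843 UMIs in the coculture and 35622 in the monoculture, beside 30656 and 35504 in the other clusters, and 4693 and 4972 detected genes beside 4723 and 4951. Mitochondrial RNA took a median of 13.6% of the UMIs in both libraries of cluster 6, beside 15.3% and 15.6%. A doublet score above 0.25 was found in 2.17% of its coculture cells and 1.22% of its monoculture cells, beside 3.92% and 3.53% in the other clusters pooled, which ran from 1.66% to 8.36% and from 1.35% to 7.21%. Barcodes that occur in more than one library were carried by 64 annotated cells, of which 3 were in cluster 6.

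The cells held mCherry and luminal genes, whereas 4 of the 5 genes given below for the resistant line were lower. In cluster 6, mCherry reached 118 CPM (counts per 1e6 UMIs of the pooled cells, exact Poisson interval 113 to 124) in the coculture and 87.2 CPM (83.2 to 91.3) in the monoculture, beside 82.4 and 51.6 CPM in the other clusters pooled. Cluster by cluster the others ran from 74.4 to 124 CPM and from 42.2 to 77.1 CPM, with cluster 10 above cluster 6 in the coculture. In the coculture an mCherry UMI was part of the authors' call of a resistant cell. The paper's rule of 2 or more transgene UMIs was not met by all annotated monoculture cells. There 87.5% of the cluster 6 cells (84.5 to 90.1) held an mCherry UMI, within the range of 67.4% to 92.6% over the other clusters. The 16 luminal genes (keratins 8, 18 and 19, EPCAM, ESR1, GATA3, FOXA1 and others) summed to 9164 CPM in cluster 6 against 9137 in the coculture, and to 11073 against 11280 in the monoculture. Of the luminal genes, 8 of 15 with enough UMIs were higher and 7 lower in the coculture, and 7 and 8 in the monoculture. Basal markers summed to 4.91 and 2.74 CPM in cluster 6, fibroblast markers to 7.65 and 4.11 CPM, and immune markers to 0.26 and 1.08 CPM, with 3 of 6 basal, 2 or 3 of 5 fibroblast and 2 or 3 of 4 immune genes at 0. Across the other clusters the basal sum ran from 1.21 to 3.16 CPM in the coculture and from 0.66 to 1.26 CPM in the monoculture, and the fibroblast sum from 4.21 to 6.35 CPM and from 1.58 to 3.45 CPM. Cluster 6 was thus above each of the other clusters for both lists in both libraries, at levels of a few CPM. The immune sum ran from 0.79 to 1.17 CPM and from 0.82 to 1.55 CPM. The 2 endothelial markers matched had 0 UMIs in cluster 6, which allows up to 3 UMIs per library.

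MGP, the gene given as a marker of this cluster, was among the most reduced genes in it, so it marks the cluster by being low. In the coculture MGP was at 1041 CPM (1025 to 1057) in cluster 6 and at 6591 CPM in the other resistant clusters, a log2 ratio of -2.66 (-2.68 to -2.64). In the monoculture it was at 1423 CPM (1406 to 1439) against 6944 CPM, a log2 ratio of -2.29 (-2.30 to -2.27). Ratios here and below are taken after adding 1 CPM to each level, which understates the change of low genes, whereas their intervals refer to the plain ratio of counts.

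Cluster by cluster, MGP took 2 levels among resistant cells. In the coculture it was at 7405 CPM in cluster 0, 6952 in cluster 1, 5469 in cluster 2, 6262 in cluster 5 and 989 in cluster 10. The monoculture gave 7731, 7085, 5730, 6493 and 1169 CPM in the same order. Clusters 6 and 10 were low and the other 4 were high in both libraries. Sensitive cells of the sensitive monoculture held 404 CPM, below cluster 6. The MGP gene lies at chr12:15033798-15038791 on GRCh37.

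The low level was a property of most cells in the cluster rather than of a few. The median cell of cluster 6 held 6.61 MGP UMIs per 10000 in the coculture (quartiles 3.68 and 12.5) and 9.36 in the monoculture (4.88 and 17.2). In the other clusters the median was 54.9 (24.1 and 93.0) and 58.8 (27.1 and 98.1), so the quartile ranges did not overlap. After every cell was thinned to 5000 UMIs, the medians were 3 and 5 MGP UMIs in cluster 6 beside 27 and 29. MGP was low in every phase of cluster 6, at 986 CPM in G1, 1119 CPM in S and 1118 CPM in G2M cells of the coculture, and at 1342, 1466 and 1609 CPM in the monoculture.

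**Figure D1:**
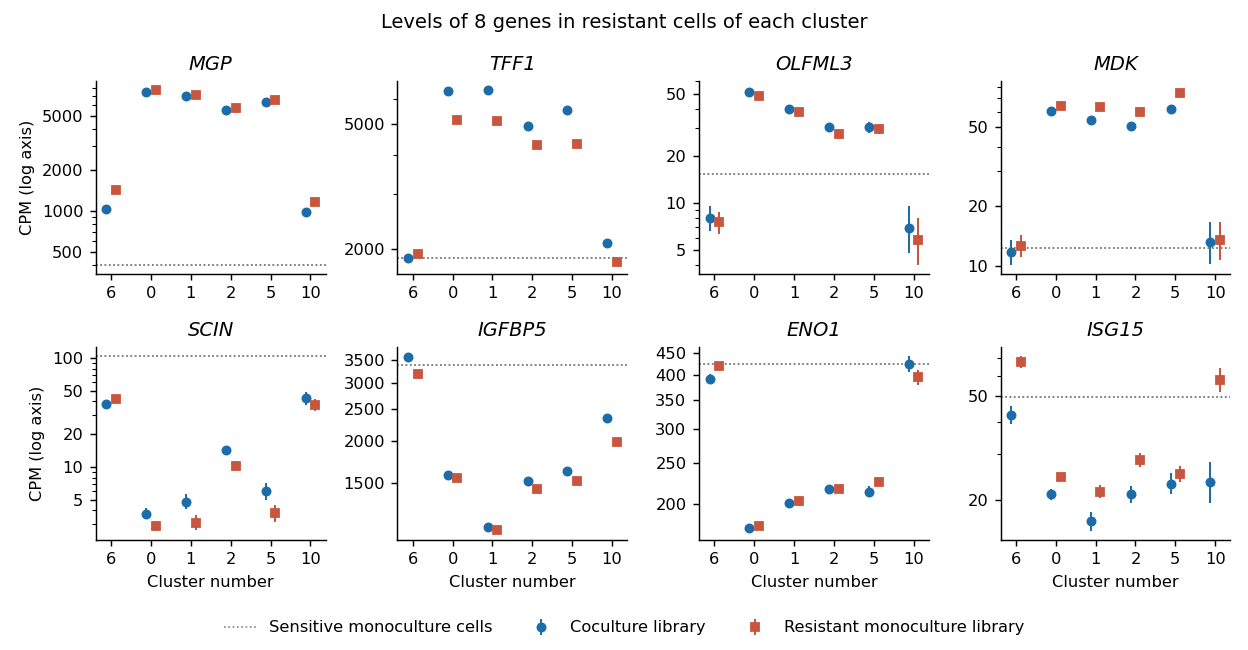
Levels of 8 genes in the resistant cells of clusters 6, 0, 1, 2, 5 and 10 (CPM on a log axis, coculture and resistant monoculture, bars are exact Poisson intervals), with a dotted line at the level in sensitive monoculture cells. MGP stood at 1041 and 1423 CPM in cluster 6, near the 989 and 1169 CPM of cluster 10 and below clusters 0, 1, 2 and 5.

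Cluster 6 was mixed in its cell cycle phases. By the authors' phase column, 58.0% of its coculture cells were in G1 (53.6 to 62.3), 27.0% in S (23.2 to 31.1) and 15.0% in G2M (12 to 18.4). The monoculture had 52.6% in G1 (48.4 to 56.7), 31.6% in S (27.8 to 35.6) and 15.8% in G2M (12.9 to 19.0). Cells in S or G2M together made up 42.0% (37.7 to 46.4) and 47.4% (43.3 to 51.6) of the cluster. In the other clusters S and G2M cells were 16.3% and 19.3% of cluster 0, 34.5% and 31.0% of cluster 5, 97.2% and 97.4% of cluster 1, and 100% of clusters 2 and 10. Cluster 5 was mixed as well, with 65.5% and 69.0% G1, 6.0% and 7.0% S, and 28.5% and 24.0% G2M cells. Cluster 0 was mainly G1, clusters 1 and 10 mainly S, and cluster 2 mainly G2M.

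**Figure D2:**
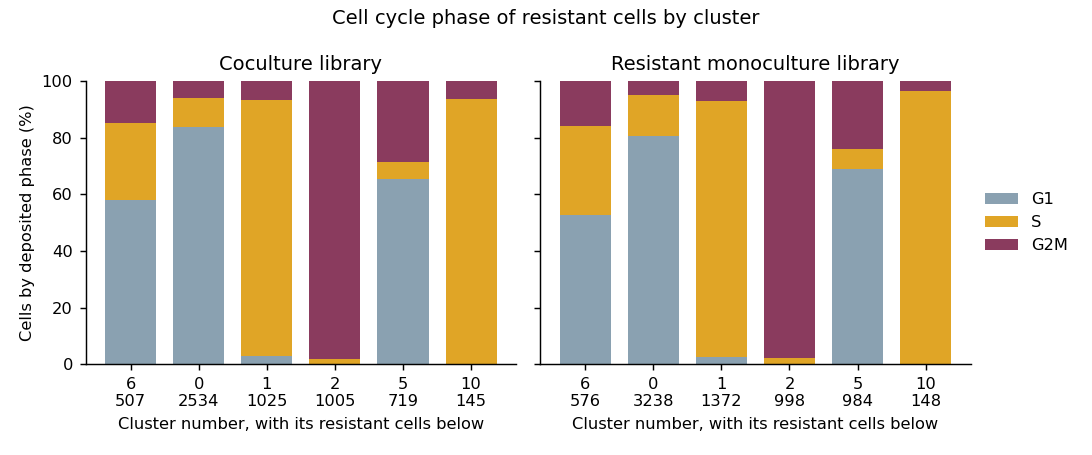
Percent of resistant cells in G1, S and G2M by cluster and library, from the authors' phase calls. Cluster 6 held 58.0% and 52.6% G1 cells, whereas clusters 1, 2 and 10 were almost wholly S or G2M.

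The cycling cells of cluster 6 scored lower for their phase than those of the other clusters pooled, but not lower than those of clusters 0 and 5 throughout. S-phase cells of cluster 6 had a median S score of 0.054 in the coculture and 0.0578 in the monoculture, against 0.205 and 0.195 in S-phase cells of the other clusters. Its G2M cells had a median G2M score of 0.0431 and 0.0502, against 0.302 and 0.304. S cells had median S scores of 0.0305 and 0.0378 in cluster 0 and 0.022 and 0.023 in cluster 5, below cluster 6. G2M cells had median G2M scores of 0.0185 and 0.0229 in cluster 0 and 0.0973 and 0.111 in cluster 5, on either side of cluster 6. Called anew on cells thinned to 5000 UMIs, 31.0% (27.0 to 35.2) and 36.3% (32.4 to 40.4) of cluster 6 were in S or G2M. The same thinning gave 14.1% and 17.1% in cluster 0, and 33.0% and 29.2% in cluster 5.

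The cell cycle genes were lower in cluster 6 than in the pooled clusters but higher than in cluster 0 alone. Over the 42 S-phase genes matched, which encode replication and nucleotide synthesis factors, the median log2 ratio of cluster 6 to the other clusters was -0.49 in the coculture and -0.40 in the monoculture, with 37 and 35 genes lower. Over the 54 G2M genes, which encode spindle and mitotic factors, it was -0.84 and -0.59, with 52 genes lower in each library. For all genes with at least 50 UMIs it was -0.03 and -0.02, with 6762 of 12338 and 6775 of 12544 genes lower. Against cluster 0 alone the S list turned to 0.40 and 0.49 and the G2M list to 0.34 and 0.40. These lists are the ones the phase calls rest on.

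Within a phase the direction depended on the phase. Among G1 cells alone the medians turned to 0.12 and 0.22 for the S list and 0.16 and 0.25 for the G2M list, so that G1 cells of cluster 6 held slightly more of this RNA than other G1 cells. Among S cells the S list was at -0.69 and -0.60, and among G2M cells the G2M list was at -1.11 and -1.10. RRM2, a subunit of the enzyme that makes deoxyribonucleotides, gave log2 ratios of 0.38 and 0.36 in G1 cells but -1.87 and -1.94 in S cells. TYMS, which makes thymidylate, gave 0.34 and 0.68 in G1 but -1.73 and -1.55 in S cells. PLK1, a mitotic kinase, gave 0.03 in G1 cells of each library and -2.10 and -2.02 in G2M cells. HMGB2, a chromatin protein of dividing cells, gave -0.08 and 0.17 in G1, and -1.88 and -1.63 in G2M cells. Most of the S and G2M cells in the pool belong to clusters 1 and 2.

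CDK4, a target of ribociclib, was at 102 CPM in cluster 6 against 108 in the coculture and at 106 against 112 in the monoculture, and CDK6, its other target, did not reach the minimum of 50 UMIs in both libraries. Over 20 genes of the CDK, cyclin and RB pathway with enough UMIs, the median log2 ratio was -0.10 in the coculture and -0.08 in the monoculture, with 14 and 12 lower. Against cluster 0 alone this median turned to 0.23 and 0.25. The largest differences in the list were in genes that follow the cycle: CCNE2, a cyclin E of the G1/S transition, was at 4.46 against 11.2 CPM and 3.72 against 8.28 CPM. CCNA2, the cyclin of S and G2, was at 9.50 against 24.7 CPM and 9.99 against 21.0 CPM. RBL1, a relative of RB, was at 6.44 against 10.6 CPM and 6.12 against 9.21 CPM. The 12 histone genes that are made with DNA replication had medians of -0.23 and -0.24, of which HIST1H4C, whose transcript shares sequence with other H4 genes, was at 224 against 560 CPM and 155 against 428 CPM.

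In both libraries 24 genes were at least 2-fold higher in cluster 6 than in the other resistant clusters pooled. They were 0.195% of the 12297 genes with at least 50 UMIs in each library. Another 87 genes, or 0.707%, were at least 2-fold lower than in that pool. By any amount, 34.8% of the genes were higher in both libraries and 43.6% lower. Of the 87 lower genes, 16 belonged to the S and G2M lists, and none of the 24 higher genes did. Those lists had 42 and 54 genes among the 12297, so their absence from a set of 24 says little. When the other clusters were weighted to the phase make-up of cluster 6, 24 genes (0.195%) were at least 2-fold higher and 69 (0.561%) at least 2-fold lower. Of the 24 and 87, 22 and 66 stayed past the fold in that comparison. The counts depended on the pseudocount, at 81 higher and 208 lower with 0.1 CPM and 4 and 24 with 10 CPM, and the monoculture taken alone gave 41 higher genes.

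**Figure D3:**
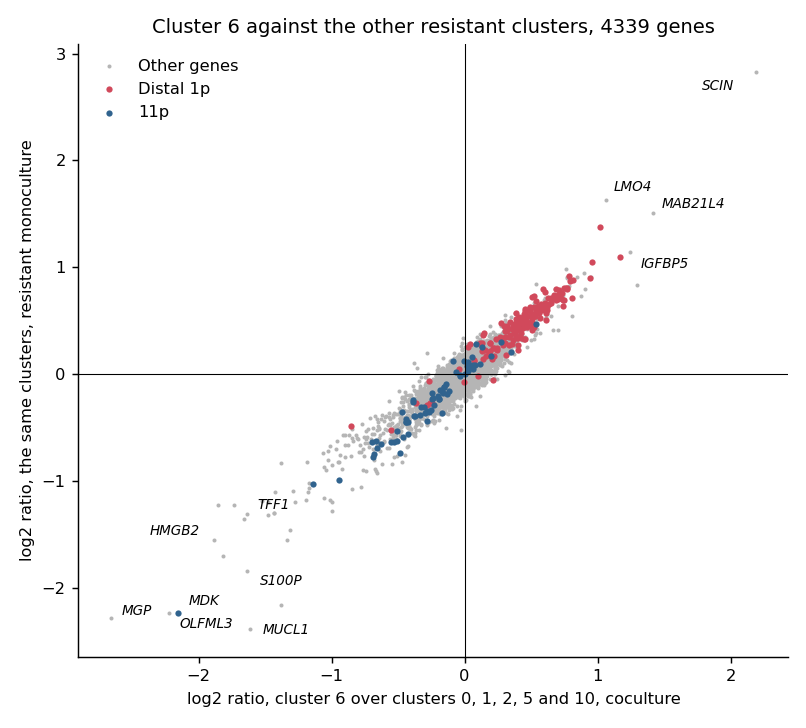
Log2 ratio of cluster 6 over clusters 0, 1, 2, 5 and 10 for 4339 genes with a position and a mean of at least 20 CPM, coculture on the x axis and resistant monoculture on the y axis, with genes of distal 1p in red and of 11p in blue. MGP lies at the lower left at -2.66 and -2.29, SCIN at the upper right at 2.19 and 2.83, and 162 of the 173 distal 1p genes lie above 0 on both axes.

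SCIN, a calcium-dependent protein that severs actin filaments, led the genes that were higher. In the coculture it was at 38.1 CPM in cluster 6 and 7.54 CPM in the other clusters, and in the monoculture at 42.3 and 5.10 CPM, which gave log2 ratios of 2.19 and 2.83. A SCIN UMI was found in 58.2% and 66.3% of the cluster 6 cells, beside 14.7% and 10.3% of the others, at nearly equal median depth. The ratio was large in each phase, from 1.89 in G2M cells of the coculture to 3.40 in G1 cells of the monoculture. Sensitive monoculture cells held 104 CPM of SCIN.

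IGFBP5, a secreted protein that binds insulin-like growth factors, was at 3576 against 1506 CPM in the coculture and 3190 against 1446 CPM in the monoculture (log2 1.25 and 1.14), and sensitive monoculture cells held 3385 CPM. MAB21L4 was at 31.1 against 11.1 CPM and 51.6 against 17.5 CPM. MAB21L4 did not follow the level of the sensitive cells, which held 6.89 CPM. LXN, latexin, an inhibitor of carboxypeptidases, was at 47.8 against 18.9 CPM in the coculture and 35.5 against 19.4 CPM in the monoculture. In the monoculture LXN was thus under 2-fold.

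Several of the highest-ranked genes lie on the short arm of chromosome 1, of which ENO1 was under 2-fold in the coculture and HSPB11 in both libraries. ENO1, the glycolytic enolase at chr1:8921059-8939249, was at 392 CPM (382 to 402) against 202 CPM in the coculture and 419 CPM (410 to 428) against 202 CPM in the monoculture. ISG15, a ubiquitin-like protein induced by interferon at chr1:936518-949920, was at 42.4 (39.2 to 45.7) against 20.5 CPM and 67.7 (64.2 to 71.4) against 25.4 CPM. MARCKSL1, an actin-binding membrane protein at chr1:32799440-32801834, was at 161 against 71.1 CPM and 212 against 98.8 CPM. LMO4, a LIM-domain cofactor of transcription at chr1:87794563-87814606, was at 41.9 against 19.5 CPM and 43.2 against 13.3 CPM. HSPB11, a part of the intraflagellar transport machinery at chr1:54382247-54411372, was at 76.3 against 39.3 CPM and 64.7 against 34.2 CPM.

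Genes from elsewhere in the genome also ranked among the highest, though those named here were under 2-fold in both libraries. SNCG, gamma-synuclein on 10q, was at 194 against 99.9 CPM in the coculture and 186 against 98.3 CPM in the monoculture. LAPTM4B, a lysosomal membrane protein on 8q, was at 195 against 104 CPM and 218 against 112 CPM. CRABP2, which carries retinoic acid to its receptors and lies on 1q, was at 229 against 127 CPM and 260 against 138 CPM. DDIT4, a stress-induced inhibitor of mTORC1, was at 63.8 against 36.3 CPM and 93.5 against 50.3 CPM.

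Secreted mammary products were lower as a group, and 6 of them were among the 87 genes, MGP included. Of the list of such products, 9 of 11 genes with enough UMIs were lower in the coculture and 9 of 10 in the monoculture, with median log2 ratios of -1.33 and -1.28 beside -0.03 and -0.02 for all genes, and 6 and 8 of them were at least 2-fold lower, beside 128 of 12338 and 113 of 12544 among all genes. Summed over the list, cluster 6 held 3979 CPM against 14870 CPM, and 4236 CPM against 13646 CPM. The lowest sum among the other clusters was 3949 and 3798 CPM, so the low sum was not particular to cluster 6. MGP alone gave 1041 of the 3979 CPM and 6591 of the 14870 CPM in the coculture. TFF1, a trefoil peptide induced by estrogen, was at 1882 against 5851 CPM in the coculture and 1939 against 4824 CPM in the monoculture, while sensitive monoculture cells held 1873 CPM. TFF3, another trefoil peptide, was at 135 against 379 CPM and 217 against 498 CPM. MUCL1, a small mucin-like protein, was at 172 against 529 CPM and 58.7 against 312 CPM. For MUCL1 the sensitive monoculture cells held 2910 CPM, so here cluster 6 lay on the other side of the resistant clusters. CLU, the secreted chaperone clusterin, was at 492 against 1240 CPM and 247 against 727 CPM.

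Other genes outside the cell cycle were as strongly reduced. OLFML3, a secreted matrix glycoprotein, was at 7.97 against 41.0 CPM in the coculture and 7.49 against 39.1 CPM in the monoculture (log2 -2.23 and -2.24). MDK, the heparin-binding growth factor midkine, was at 11.8 against 56.0 CPM and 12.7 against 63.4 CPM (log2 -2.15 and -2.23). PDLIM1, which binds the actin cytoskeleton, was at 10.2 against 38.5 CPM and 12.4 against 42.5 CPM. S100P, a calcium-binding protein, was at 21.6 against 69.2 CPM and 20.6 against 76.4 CPM. AZGP1, zinc-alpha-2-glycoprotein, was at 23.3 against 62.5 CPM and 14.6 against 68.9 CPM. OLFML3 lies on 1p and MDK on 11p.

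Estrogen-induced genes were uneven. Their list had median log2 ratios of -0.13 and -0.01 over 36 and 37 genes, with 24 and 20 lower. In each library 5 of them were at least 2-fold lower, beside 128 of 12338 and 113 of 12544 among all genes. ESR1, the estrogen receptor, was at 18.0 against 17.2 CPM in the coculture and 15.6 against 14.1 CPM in the monoculture. PGR, the progesterone receptor and a classical target, was at 22.8 against 23 CPM and 27.9 against 21.9 CPM. GREB1, another target, was at 48.0 against 57.0 CPM and 46.1 against 58.4 CPM. AREG, an EGFR ligand of the list, was at 2.61 against 8.42 CPM and 1.86 against 5.66 CPM.

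Broader gene groups shifted by small amounts, each in the same direction in both libraries. For all genes with enough UMIs the medians were -0.03 and -0.02. Of these genes, 5576 of 12338 and 5769 of 12544 were higher, and 6762 and 6775 lower. Cytosolic ribosomal proteins had medians of 0.15 and 0.17, with 37 and 36 of 38 higher. MYC targets and nucleolar genes had medians of 0.20 and 0.25, with 20 and 21 of 22 higher, and proteasome genes had 0.13 and 0.16, with 17 and 18 of 19 higher. Glycolysis enzymes had 0.17 and 0.19, with 11 of 15 higher. Summed over the list, ribosomal proteins were above each other cluster, at 128483 and 135691 CPM beside at most 120290 and 127370. The other sums were exceeded by another cluster in both libraries. Its highest was 6108 and 6285 beside 5599 and 6108 CPM for MYC targets and nucleolar genes. It was 4895 and 5181 beside 4715 and 4996 for the proteasome, and 6027 and 6671 beside 5506 and 6336 for glycolysis. Among these, RPL11 of the ribosome, PSMB2 of the proteasome, SRM of polyamine synthesis and ENO1 are on 1p. Without the genes of 1p and 11p, the medians were 0.15 and 0.16 for ribosomal proteins and 0.20 and 0.24 for MYC targets and nucleolar genes. They were 0.13 and 0.17 for the proteasome and 0.17 and 0.18 for glycolysis. On the other side, folding factors of the endoplasmic reticulum had medians of -0.24 and -0.25 with 19 of 20 lower, and MHC class I genes had -0.30 and -0.27 with 10 of 10 lower. The folding sum was below each other cluster, at 3460 and 3570 CPM beside at least 3545 and 3593. For MHC class I the lowest other cluster was below cluster 6, at 645 and 647 beside 652 and 709 CPM. CTSD, a lysosomal protease on 11p, was at 309 against 486 CPM and 254 against 410 CPM, and HLA-C, which presents peptides to T cells, at 143 against 195 CPM and 163 against 221 CPM.

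The remaining lists had these values. Lysosome genes had medians of -0.13 and -0.16 with 11 and 14 of 19 lower, a share near that of all genes in the coculture. The mitochondrially encoded genes had medians of -0.10 and -0.11. Interferon-stimulated genes had -0.21 and -0.12 with 16 and 14 of 21 lower, although ISG15 was higher. Metallothioneins, with 3 genes, had -0.58 and -0.32, but 0.11 and 0.03 in G1 cells and 0.72 and 0.57 against cluster 0 alone. Lists for hypoxia, ATF4 stress, heat shock, immediate early genes, p53 targets, nuclear respiratory chain, nuclear-retained RNAs, cholesterol, fatty acids, EGFR and MAPK, TGFB and BMP, epithelial to mesenchymal, BCL2 family and cytoskeleton lay between -0.14 and 0.11 in both libraries. That range holds against the pooled clusters. Against cluster 0 alone the cytoskeleton list was at 0.32 and 0.36 and the heat shock list at 0.27 and 0.25. The 5 genes that earlier results of these data had given for the resistant line had medians of -1.32 and -1.20, but 0.11 and 0.03 in G1 cells and 0.27 and 0.28 against cluster 0 alone. A median of 5 genes is the value of 1 member, and in G1 it equaled the metallothionein median. Their sum was below each other cluster, cluster 0 included, at 1967 and 2353 CPM beside at least 3918 and 3827. The 9 genes given for the sensitive line had medians of 0.06 and -0.00. These last lists were chosen on these same cells, so they are no independent evidence.

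The genes of cluster 6 also differed by chromosome arm. Among 4339 genes with a known position and at least 20 CPM on average, the 260 genes of 1p had median log2 ratios of 0.33 in the coculture and 0.35 in the monoculture, and the 72 genes of 11p had -0.23 and -0.23, beside 0.01 and 0.02 for all 4339. On 1p, 202 of 260 genes were higher in both libraries, whereas 45.3% of all these genes were. On 11p, 51 of 72 genes were lower in both libraries, beside 40.1% of all. The other 39 arms with at least 10 genes had medians from -0.10 to 0.09 over the 2 libraries.

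**Figure D4:**
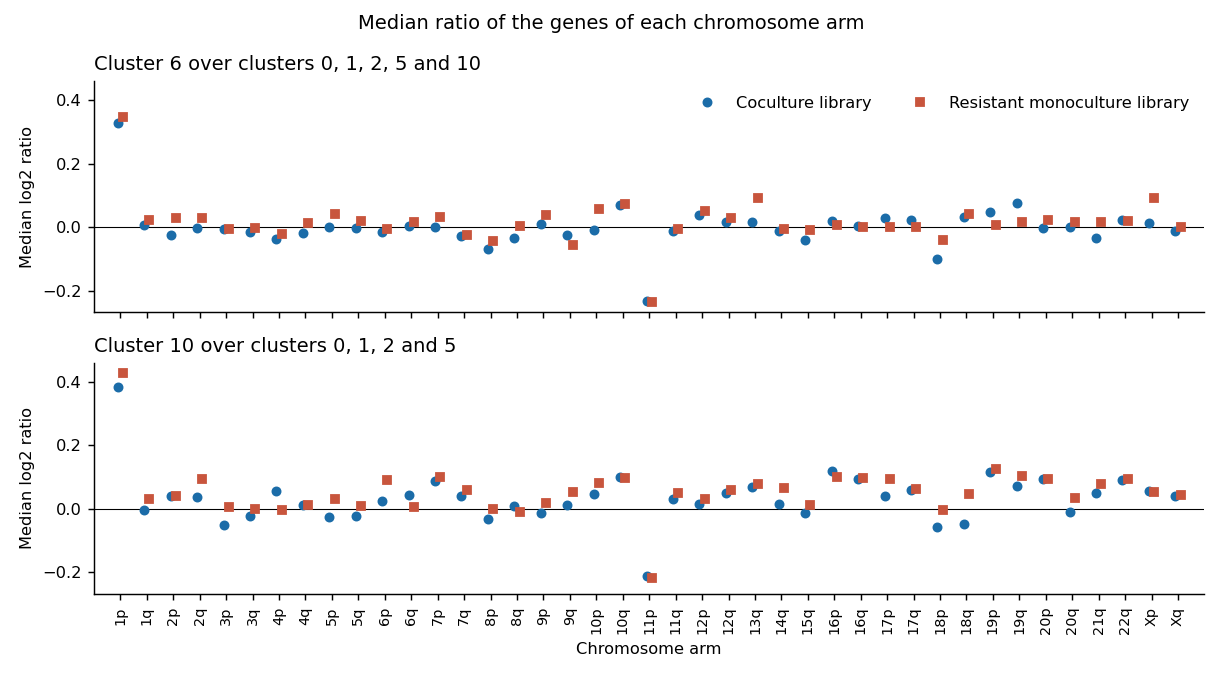
Median log2 ratio by chromosome arm in each library, for cluster 6 over clusters 0, 1, 2, 5 and 10 (top) and for cluster 10 over clusters 0, 1, 2 and 5 (bottom). In both panels 1p stands highest (0.33 and 0.35 for cluster 6, 0.38 and 0.43 for cluster 10) and 11p lowest.

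On 1p the higher levels were held by the outer part of the arm. The 173 genes in the first 60 Mb of chromosome 1 (GRCh37), a limit set after the medians of 10-Mb bins had been seen, had medians of 0.42 and 0.47, or 1.34-fold and 1.38-fold. Of these, 162 were higher in both libraries, which is 93.6%. The 87 genes on 1p beyond 60 Mb had medians of -0.00 and 0.04, and the 233 genes of 1q had 0.01 and 0.02. The difference was present in each phase, at 0.54, 0.41 and 0.34 in G1, S and G2M cells of the coculture and at 0.58, 0.42 and 0.36 in the monoculture. Among the genes there, NDUFS5 of respiratory complex I was at 795 against 507 CPM in the coculture, and PSMB2 of the proteasome at 165 against 104 CPM. On chromosome 11 the first 10 Mb had medians of -0.32 and -0.36. Of the 147 other 10-Mb bins with at least 10 genes, 1 passed 0.2 in size in both libraries, at 120 Mb of chromosome 5 with -0.27 and -0.22. DNA was not measured here.

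Single cells showed the same difference. Genes of distal 1p took a median of 3.63% of the nuclear-gene UMIs per cell in cluster 6 of the coculture and 3.61% in the monoculture. The medians were 2.37% and 2.35% in cluster 0, 2.48% and 2.47% in cluster 1, and 2.54% and 2.48% in cluster 5. Cluster 10 again sided with cluster 6, at 3.67% and 3.65%. At a line of 3%, chosen after the histograms had been seen, 466 of 507 cells of cluster 6 (91.9%) and 540 of 576 (93.8%) lay at or above it, beside 5.25% and 5.81% of cluster 0. Sensitive cells had medians of 3.15% in the coculture and 3.0% in the sensitive monoculture, between the 2 kinds of resistant cells. The 11p share was 1.28% and 1.26% in cluster 6 and 1.26% and 1.25% in cluster 10.

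**Figure D5:**
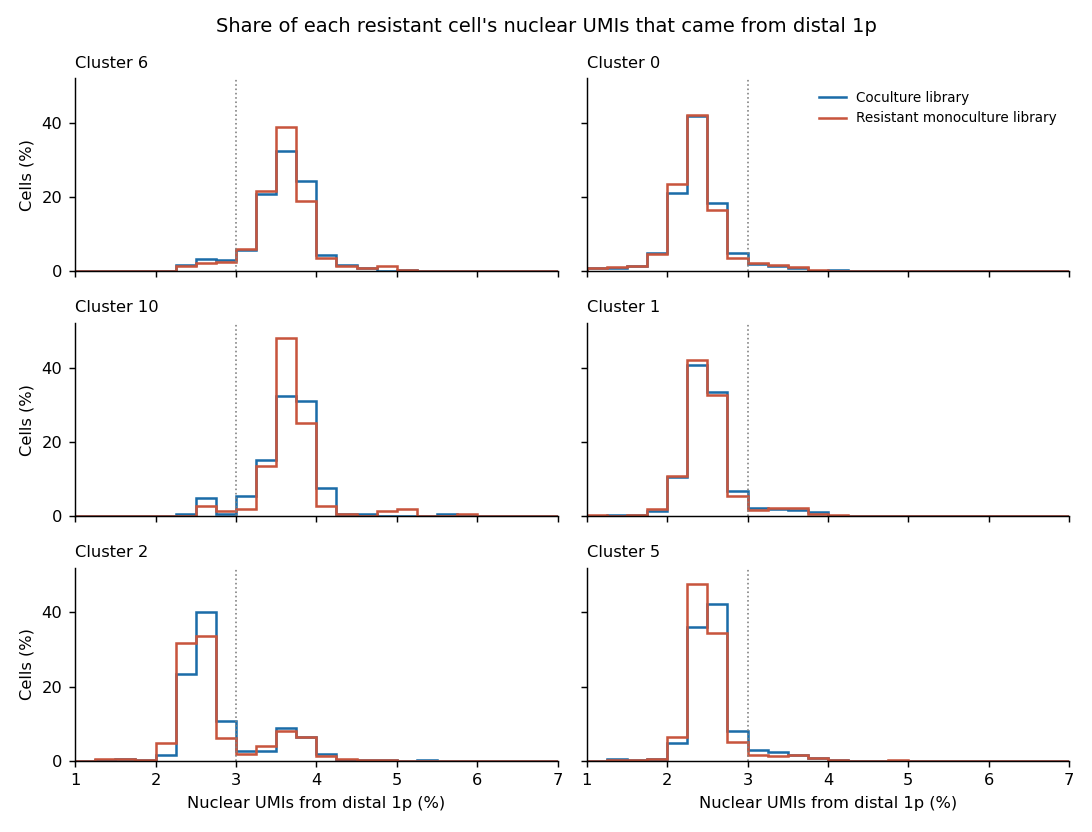
Histograms of the percent of nuclear-gene UMIs from distal 1p per resistant cell, by cluster and library, with a dotted line at 3% (7 cells outside the axis are not drawn). Clusters 6 and 10 lie mostly to the right of the line, clusters 0, 1 and 5 to the left, and cluster 2 on both sides.

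Cluster 2, the G2M cluster, was split by this measure, and its parts differed in the genes of cluster 6. At or above 3% lay 234 of its cells in the coculture and 224 in the monoculture, which is 23.3% and 22.4%. Those cells held 1999 CPM of MGP beside 6583 CPM in the cells under the line in the coculture, and 1840 beside 6884 CPM in the monoculture. SCIN was at 38.1 beside 6.68 CPM and 30.3 beside 4.30 CPM, IGFBP5 at 2308 beside 1273 CPM and 2112 beside 1244 CPM, and TFF1 at 2957 beside 5578 CPM and 2614 beside 4788 CPM. Of the 24 higher genes, those off distal 1p with enough UMIs were higher in cells at or above the line in 18 of 18 and 16 of 16 cases, while 44.8% and 48.0% of all genes were. Of the 87 lower genes, 75 of 86 and 75 of 85 were lower, beside 55.2% and 52% of all genes. Median 11p shares were 1.27% beside 1.49% and 1.31% beside 1.47%. Moving the line to 2.8% or 3.2% left the MGP log2 ratio between -1.36 and -2.03.

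Within cluster 6 few cells lay under the line, and genes differed in how far it separated them. Its 41 and 36 cells under 3% held 1536 and 1818 CPM of MGP, beside 1003 and 1397 CPM in its cells at or above the line. SCIN was at 36.1 beside 38.2 CPM and 43.4 beside 42.2 CPM. OLFML3 was at 10.6 beside 7.77 CPM and 22.5 beside 6.52 CPM, and CLU at 683 beside 477 CPM and 604 beside 223 CPM, which in the monoculture was a wider gap than in cluster 2. Of the higher genes off distal 1p with enough UMIs, 9 of 17 and 13 of 20 were higher in cells at or above the line. Of all genes, 51.8% and 48.6% were, so the coculture count was near the share of all genes. Of the lower genes with enough UMIs, 36 of 61 and 36 of 66 were lower, beside 48.2% and 51.4% of all genes.

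Cells at or above 3% in clusters 0, 1 and 5 lay between the 2 kinds of cells in MGP but not in 11p. They numbered 133, 70 and 57 in the coculture and 188, 95 and 53 in the monoculture. Such cells held 3237 to 4117 CPM of MGP in the coculture and 3057 to 4338 CPM in the monoculture. Their median 11p shares were 1.52% to 1.56% and 1.47% to 1.58%, beside 1.53% to 1.56% and 1.51% to 1.53% in the cells under the line. Of the higher genes off distal 1p, 15 of 17, 11 of 13 and 12 of 13 were higher in such coculture cells. Of all genes, 46.5%, 47.3% and 42.7% were. In the monoculture 16 of 16, 11 of 14 and 7 of 14 were higher, beside 49.9%, 49.7% and 43.5% of all genes. The 7 of 14 in cluster 5 was thus near the share of all genes. Of the genes lower in cluster 6, 63 of 86, 68 of 86 and 59 of 83 were lower in the coculture. Of all genes, 53.5%, 52.7% and 57.3% were. In the monoculture 54 of 86, 70 of 86 and 68 of 85 were lower, beside 50.1%, 50.3% and 56.5% of all genes. S100P, low in cluster 6, had no single direction: it was higher in such cells of cluster 0, at 125 beside 94.5 CPM and 136 beside 105 CPM, but lower in those of cluster 5, at 40.2 beside 49.8 CPM and 42.7 beside 54.7 CPM. In all, 1230 resistant cells of the coculture and 1280 of the monoculture lay at or above the line. Of these, cluster 6 held 37.9% and 42.2%, cluster 2 held 19.0% and 17.5%, cluster 10 held 11.1% in each, and cluster 0 held 10.8% and 14.7%. In the coculture, 54 of 91 resistant cells of cluster 3, 30 of 37 of cluster 7 and 35 of 89 of cluster 11 were also at or above the line. Cluster 6 thus held more of the high-share cells than any other cluster of the 6 compared, and clusters 2 and 10 held cells with like values in G2M and S.

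Cluster 10 resembled cluster 6 in its genes as well. Of the 24 genes higher in cluster 6, 21 were above all of clusters 0, 1, 2 and 5 in cluster 10 in both libraries, beside 17.8% of all genes. Of the 87 lower genes, 52 were below all 4 in cluster 10, beside 20.1% of all genes, and 6 were above all 4. In cluster 6 itself the 24 higher genes were all above these 4 clusters, beside 13.6% of all genes. Those genes were chosen by their ratio to a pool that held these clusters, so this count is no support. Only 55 of the 87 lower genes, chosen in the same way, were below all 4 there, beside 15.6% of all genes. As a distance over all genes of at least 50 CPM, the root mean square of the log2 differences, cluster 5 was nearest to cluster 6 at 0.253 and 0.239. Cluster 10 lay at 0.351 and 0.353, and the 2 libraries of cluster 6 at 0.232 from each other. Over genes of at least 200 CPM, cluster 10 was nearest, at 0.256 and 0.257 beside 0.278 and 0.261 for cluster 5. Among S cells alone cluster 10 lay at 0.276 and 0.294, cluster 0 at 0.297 and 0.284, cluster 1 at 0.325 and 0.330, and cluster 5, with enough S cells in the monoculture, at 0.251 there, so cluster 10 was the nearest of those measured in the coculture but not in the monoculture.

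Within cluster 6, the coculture and the monoculture differed in few genes. With 1 library each, these values compare libraries and not conditions. Of 10530 genes with at least 50 UMIs, 12 (0.114%) were at least 2-fold higher in the coculture and 5 (0.0475%) at least 2-fold lower. In the other resistant clusters 3 of 13013 (0.0231%) were higher. The pools of cluster 6 were smaller, with 15683356 and 20425847 UMIs beside 171933626 and 242535358, so the 2 shares are not alike in depth. With at least 500 UMIs required, 2 genes of cluster 6 were higher and 0 lower. MUCL1 was at 172 CPM in the coculture and 58.7 CPM in the monoculture (log2 1.54, interval 1.45 to 1.65), beside a log2 ratio of 0.76 in the other clusters. CLU, with 492 and 247 CPM, gave 0.99 beside 0.77. STC2, a secreted glycoprotein induced by stress, was at 53.4 and 28.7 CPM, or 0.87 beside 0.61. In the opposite direction, ISG15 gave -0.66 beside -0.30, TFF3 gave -0.68 beside -0.40, and KRT81, a hair keratin, gave -0.70 beside -0.07. MGP itself was at 1041 and 1423 CPM.

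The 20 sensitive cells of the coculture that the authors had placed in cluster 6 were all in G1. Their distal 1p share had a median of 3.1% and their 11p share one of 1.59%, near the values of sensitive cells rather than those of the resistant members.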

How the data were processed

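Single-cell libraries were made from 3 spheroid compositions of a cell line, with 1 library each. The authors deposited UMI counts per gene and barcode, made with Cell Ranger 3.0.2 on GRCh37 per the labels. Their annotation gives the population, the cluster and the phase of 19237 cells, with deposited S and G2M scores and percent of mitochondrial RNA. The other 8 annotation columns were not used. Rows without a gene symbol held 0.523% to 0.591% of the UMIs and were left out.

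UMIs of resistant cells were summed per library and cluster and scaled to CPM, and log2 ratios were taken with a pseudocount of 1 CPM for genes with at least 50 UMIs in the 2 pools. Phase-weighted ratios used the phase shares of cluster 6. Intervals are 95% Clopper-Pearson, exact Poisson or exact conditional intervals. Depth was 29843 and 35622 median UMIs per cell in cluster 6. Arms were split at the longest gap of each GRCh37 chromosome, with gene positions from GENCODE. Doublets were scored with scrublet in scanpy 1.11.5 and kept. The code was tested on simulated data. Analyses ran in Python 3.11.15, numpy 2.4.6 and scipy 1.17.1, with TMM factors from edgeR 4.0.16 in R 4.3.3 as an alternative scaling and no count model.

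Named genes were MGP, the 12 highest and 12 lowest by the smaller ratio of the 2 libraries among genes of at least 20 CPM, the 8 highest and 8 lowest after phase weighting, and the 3 largest of each of 37 gene lists. CDK4, ESR1, PGR and GREB1 were added after their values were seen. The members and lists were chosen with earlier results of these data known. Of 678 list entries, 669 were matched.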

Additional observations from a re-analysis of the deposited data

How the results depend on the processing

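Every comparison rests on 1 library per condition, clusters were drawn on the genes compared, and the counts of genes past a fold depend on the pseudocount. Settings named here with clusters 0, 1, 2 and 5 alone, other lines and arm medians were added after the data were seen. No paired analysis was possible because each group had 1 library and no result came from a test. The causes of the changes below were not tested.

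With 2 or more transgene UMIs required, cluster 6 held 9.72% and 11.1% of resistant cells in the coculture and monoculture. Phase calls on thinned cells gave 31.0% and 36.3% in S or G2M. Genes at least 2-fold higher numbered 81 with a pseudocount of 0.1 CPM, 4 with 10 CPM, 41 in G1 cells alone and 63 against cluster 0 alone, and 34 to 41 when either library was left out, with 41 without the coculture; genes at least 2-fold lower numbered 208 and 24 with the 2 pseudocounts. Between the libraries of cluster 6, genes higher in the coculture numbered 42 with 0.1 CPM, 1 with 10 CPM and 2 with at least 500 UMIs, and genes lower 21, 0 and 0.

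The MGP log2 ratio in the coculture was -2.70 with phase weighting, -2.84 in G1 cells, -2.70 without high doublet scores, -2.63 after thinning, -2.83 against cluster 0, -2.62 against all other resistant cells and -2.70 without cluster 10. In the monoculture it was -2.46 in G1 cells, -2.35 with 2 or more transgene UMIs, -2.32 without high doublet scores, -2.25 after thinning, -2.44 against cluster 0 and -2.32 without cluster 10. The 1p median in the coculture was 0.41 in G1 cells and 0.42 against cluster 0, and in the monoculture 0.28 with 10 CPM, 0.47 in G1 cells and 0.47 against cluster 0. The nearest cluster was 10 in both libraries over genes of at least 200 CPM.

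The S list turned to 0.12 and 0.22 in G1 cells and to 0.40 and 0.49 against cluster 0, and the G2M list to 0.16 and 0.25 and to 0.34 and 0.40. Of the other 37 list, distance and cluster 2 values that moved, the resistant-line list against cluster 0 went to 0.27 and 0.28, the metallothioneins to 0.72 and 0.57 and the CDK, cyclin and RB list to 0.23 and 0.25, while 905 further values stayed within their spread.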
